A study of Rattus norvegicus with 6 samples.

Results

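Ceruloplasmin and the genes that move iron into, within and out of cells were examined in rat sciatic nerve after crush. The 10 genes were chosen by name: the ferroxidases Cp and Heph, the exporter Slc40a1, the importers Tfrc, Slc11a2 and Slc39a14, the ferritin heavy chain Fth1, the iron sensors Aco1 and Ireb2, and the iron-siderophore carrier Lcn2. Of the 10, 9 were found by name among the 30957 genes of the expression table, each in 1 row, and 8 of these 9 had enough counts for the comparison of the groups. Slc40a1 was not analysed here. Cp is among the genes named by the study for its difference between the nerves, and all 10 were chosen with the crushed and intact values already known, so their differences are given as a description and without a test.

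The nerves came from Sprague Dawley rats with no stated genetic change. RNA-seq covered 3 crushed nerves, labelled as injured sciatic nerve tissue, and 3 intact nerves of the opposite side, labelled as normal sciatic nerve tissue, each group described as biological replicates. The intact nerves are thus those of operated animals. The methods place collection at 4 days postinjury (dpi) and the crushed samples in the proximal stump, and they include a step with RNase R, which digests linear RNA. The methods describe the rats as adult males, and the labels give no time point, sex or age.

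The total count on genes lay between 24844371 and 27139360 per nerve. The defining genes of the labelled tissue were largely absent, since 6 of 11 myelin and Schwann cell markers had at most 3 counts in any nerve, among them Mbp, Sox10 and S100b. The 7 proliferation genes examined summed to between 3140 and 3470 normalized CPM (a scale that corrects counts for library size with TMM factors). Of 12 macrophage and leukocyte markers, 5 were at 0, including Ptprc, and the list summed to between 3.94 and 6.30 normalized CPM. The endothelial list summed to between 3.77 and 5.53. The fibroblast list summed to between 186 and 199 in intact and between 163 and 182 in crushed nerves, with Dcn, Lum and Col1a2 at 0. The myelin and Schwann cell list summed to between 65.3 and 70.3 in intact and to 62.8 in each crushed nerve. Of these markers Erbb3, Col1a1 and Col3a1 fell, with log2 fold changes of -0.59, -0.69 and -1.76 (edgeR adjusted p = 0.0222, 0.000662 and 0.0268), and their part in the differences below was not tested. All 7 erythroid genes with a row had at most 3 counts, and the globin genes Hba1, Hba2 and Hbb were at 0. Pcbp1 and Nfs1, genes that every cell uses, were listed at 0 or 1 count as well, so that a gene listed at 0 cannot be taken as a gene without RNA. The name nerve is thus used here as the labels give it, and the values compare libraries so labelled. The markers and other genes named here for counts at or near 0 were chosen after their values were seen.

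Iron reaches most cells bound to transferrin, is taken in by the transferrin receptor, and leaves endosomes through the transporter encoded by Slc11a2. Iron that is not used is oxidized and stored in the shell of ferritin, which is built of heavy and light chains. Export through ferroportin, the product of Slc40a1, needs a ferroxidase, for which ceruloplasmin (in plasma, and anchored on the surface of glial cells) and the membrane protein hephaestin can serve. The iron regulatory proteins encoded by Aco1 and Ireb2 bind stem-loops in mRNAs of these genes, where they stabilize the message of Tfrc and block the translation of ferritin, a step that counts of RNA do not show.

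Cp was the member with the clearest difference between the groups. Cp was counted 151, 179 and 139 times in intact nerves 1 to 3, against 449, 457 and 464 times in crushed nerves 1 to 3. Normalized, these counts were 5.97, 6.78 and 5.61 CPM for the intact and 16.4, 16.8 and 18.5 CPM for the crushed nerves. Every crushed nerve lay above every intact nerve, with a gap between the groups wider than the whole spread within either of them. The means were 6.12 ± 0.601 and 17.3 ± 1.10 CPM (SD, n = 3 nerves each), or 2.82-fold higher in crushed nerves. The log2 fold change was 1.49 (standard error, SE, 0.1001, 95% interval 1.27 to 1.71), and 0.145% of the 12393 genes tested had a log2 fold change of larger size. In bulk RNA, more RNA per cell and more cells that carry the RNA cannot be told apart.

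In the deposited table Cp (ENSRNOG00000011913) lies on chromosome 2 from 104744461 to 104799853, on the Rnor_6.0 build that the submitters' processing notes name. Its last 10431 bases overlap the annotated span of Hps3, a gene of lysosome-related organelles, which RefSeq places on the opposite strand in the GRCr8 assembly. No strand setting of the counting is stated, so reads of the overlap could have been counted on either gene. Hps3 had between 768 and 969 counts, its groups overlapped, and its log2 fold change was 0.12 (SE 0.0759). The next genes on that side with reads, Hltf and Gyg1, had log2 fold changes of -0.09 (SE 0.0540) and -0.08 (SE 0.0809), with groups that overlapped. The next row, LOC100911693, had between 22727 and 26295 counts and a log2 fold change of -0.09 (SE 0.0456), with all 3 crushed nerves below all 3 intact nerves in normalized CPM. On the other side, the 4 nearest rows (Dnajc5b, Trim55, Crh and a U6 gene) had at most 3 counts in any nerve. These genes were chosen by their position beside Cp, and the difference between the groups was larger at Cp than at any of the 4 with reads above that level. Cp itself was chosen with its difference known, so this comparison was largely settled beforehand and nothing is read from it.

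Because Cp stood apart, the 250 bases before its annotated start are shown, with those of Lcn2, another acute-phase gene, and of Tfrc for comparison. The sequences are those of RefSeq on GRCr8, which held an entry for 8 of the 10 genes, and they read 5′ to 3′ on the strand of the gene. They span chr2:104368420-104368669 on the plus strand for Cp, chr3:36081781-36082030 on the minus strand for Lcn2 and chr11:81690319-81690568 on the minus strand for Tfrc. Capitals mark matches, on either strand, to the TATA box (TATAAA), NF-κB core (GGGANNTTC), STAT (TTCNNNGAA), C/EBP (TTGCNNAA), hypoxia response (ACGTG) and antioxidant response (TGACNNNGC) motifs.
Cp: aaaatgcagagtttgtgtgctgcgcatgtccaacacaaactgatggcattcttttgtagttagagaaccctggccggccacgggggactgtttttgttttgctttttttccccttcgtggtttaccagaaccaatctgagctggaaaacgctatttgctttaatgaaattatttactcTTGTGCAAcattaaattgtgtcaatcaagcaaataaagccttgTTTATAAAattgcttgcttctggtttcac
Lcn2: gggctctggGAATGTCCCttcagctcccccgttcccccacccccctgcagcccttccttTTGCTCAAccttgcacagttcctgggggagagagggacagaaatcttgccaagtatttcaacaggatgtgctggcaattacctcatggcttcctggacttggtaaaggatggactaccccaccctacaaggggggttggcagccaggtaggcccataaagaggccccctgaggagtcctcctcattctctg
Tfrc: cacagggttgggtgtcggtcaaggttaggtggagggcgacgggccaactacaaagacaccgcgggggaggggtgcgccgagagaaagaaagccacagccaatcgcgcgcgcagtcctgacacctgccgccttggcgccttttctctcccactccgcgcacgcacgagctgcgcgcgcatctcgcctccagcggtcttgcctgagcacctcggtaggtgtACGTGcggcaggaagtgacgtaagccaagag

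The Cp window held TATA box letters on both strands, overlapping each other, from 29 to 22 bases before the start, and a C/EBP match from 72 to 65 bases before it. Lcn2 held a C/EBP match too, from 191 to 184 bases before its start, and an NF-κB match from 241 to 233 bases. In Tfrc the letters ACGTG lay from 31 to 27 bases before the start. Across all 33469 RefSeq windows of the same length, 12.9% held the TATA box letters, 9.22% the C/EBP letters, 3.36% the NF-κB letters and 16.6% ACGTG. The STAT and antioxidant response letters, in 7.67% and 10.1% of all windows, were in none of the 9 windows of the 8 genes. The base composition also differed, with 39.6% G and C in the Cp window against 57.2% in that of Lcn2 and 64.8% in that of Tfrc. A match of letters does not show a bound site.

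Heph, whose product is the membrane-bound relative of ceruloplasmin, lay at similar levels in both groups. Heph, on chromosome X from 65563122 to 65658516 (Rnor_6.0, as for all positions that follow from the table), was counted 1659, 1786 and 1763 times in intact nerves 1 to 3, against 1832, 1828 and 1607 times in crushed nerves 1 to 3. In normalized CPM the groups overlapped, with 68.1 ± 2.83 in intact and 66.2 ± 1.78 in crushed nerves (SD, n = 3 each). For Heph the log2 fold change was -0.04 (SE 0.0503, 95% interval -0.15 to 0.07). The ratio of the 2 ferroxidases within a library, which does not depend on the scaling between libraries, was taken from FPKM (counts scaled by gene length and by the total of the library). Cp stood at 0.127, 0.140 and 0.110 of the FPKM of Heph in intact nerves 1 to 3, against 0.343, 0.350 and 0.404 in crushed nerves 1 to 3. By RNA per length, Heph thus remained above Cp in all 6 nerves, and the amounts of the 2 proteins are not shown by these values.

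**Figure D1:**
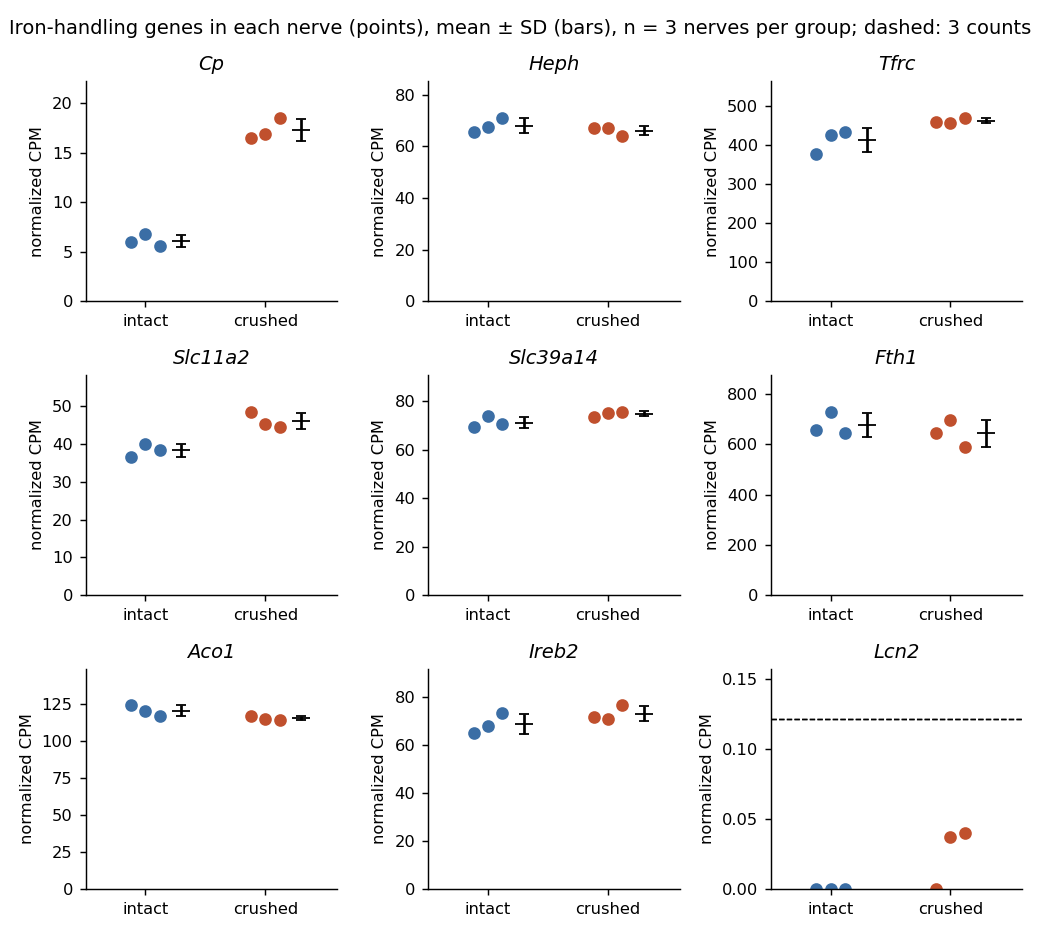
Normalized CPM (y axis, starting at 0, a scale of its own for each gene) of the 9 genes in each intact (blue) and crushed (orange) nerve, with the mean ± SD beside the points except for Lcn2, where the dashed line is the level of 3 counts. Cp, Tfrc and Slc11a2 show all 3 crushed nerves above all 3 intact nerves, with the widest separation in Cp (6.12 against 17.3 CPM).

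Of the importers, Tfrc and Slc11a2 were higher in every crushed nerve than in any intact nerve, by far less than Cp. Tfrc, on chromosome 11 from 71397383 to 71419223, encodes the receptor for iron-loaded transferrin. It had 378, 427 and 435 normalized CPM in intact nerves 1 to 3, against 459.8, 457 and 470.2 in crushed nerves 1 to 3. The 3 crushed nerves lay close together, whereas intact nerve 1 lay below the other intact nerves. The log2 fold change of Tfrc was 0.16 (SE 0.0520, 95% interval 0.05 to 0.28).

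Slc11a2, on chromosome 7 from 142025815 to 142063212, encodes the proton-coupled iron transporter of endosomes (DMT1). It had 36.5, 40.0 and 38.5 normalized CPM in intact nerves 1 to 3, against 48.6, 45.3 and 44.5 in crushed nerves 1 to 3. The lowest crushed nerve was above the highest intact nerve. Its means of 38.3 ± 1.74 and 46.1 ± 2.21 CPM (SD, n = 3 each) were 1.204-fold apart, with a log2 fold change of 0.27 (SE 0.0603, 95% interval 0.13 to 0.40). Slc11a2 messages with and without an iron-responsive stem-loop are known, and counts per gene do not separate them.

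Slc39a14 (ZIP14), a carrier of iron that is not bound to transferrin, lies on chromosome 15 from 51982982 to 52029816. It had between 69.3 and 73.8 normalized CPM in intact and between 73.6 and 75.7 in crushed nerves. Its groups overlapped at 1 point, intact nerve 2 lying just above crushed nerve 1. The log2 fold change was 0.07 (SE 0.0464, 95% interval -0.03 to 0.17).

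Fth1, on chromosome 1 from 226030938 to 226033228, encodes the ferritin chain that oxidizes iron on its way into the shell. It was counted 16617, 19276 and 15947 times in intact nerves 1 to 3, against 17600, 18964 and 14778 times in crushed nerves 1 to 3, and the groups overlapped. The log2 fold change was -0.07 (SE 0.0647, 95% interval -0.21 to 0.07). The 3 other heavy chain genes of the table were at 0 in all nerves.

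Ferritin light chain reads were spread over 9 genes of similar sequence, so that a single gene's count may hold reads of another. These genes were taken from their descriptions after the values had been seen. Their differences and the counts of calls below are thus a description and not a test of the set. By share of reads, the gene named Ftl1 held 12.02% of the light chain counts, whereas LOC100360087 on chromosome 5 held 56.4% and LOC100362384 on chromosome 13 held 24.6%. Summed over the 9 genes, the light chain was counted 20480, 18725 and 17624 times in intact nerves 1 to 3, against 15803, 15521 and 13893 times in crushed nerves 1 to 3. All 3 crushed nerves were below all 3 intact nerves, at 743 ± 57.1 against 568 ± 12.4 normalized CPM (SD, n = 3 each). This was a ratio of 0.764, or -0.39 on the log2 scale, and between -0.42 and -0.32 with each nerve left out in turn.

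Among the 7 light chain genes with enough counts, 5 lay lower in every crushed nerve than in any intact nerve, against 12.2% of all genes tested. LOC100360087, LOC100362384, RGD1560687 and Ftl1l1 had log2 fold changes of -0.42, -0.43, -0.46 and -0.46, and since they may share reads they are not separate measurements. These 4 of the 7 met an adjusted p under 0.05 with edgeR, as did 3.12% of all genes tested. LOC100360087 and LOC100362384 did so in each of 13 alternative fits, whereas the count of light chain genes that did so fell to between 2 and 3 with single nerves left out. The genes were chosen after their values were seen and may share reads, so nothing is read from these counts and shares. Ftl1 itself differed less, at -0.26 (SE 0.0611), and LOC100359668 differed in the other direction, at 0.12 (SE 0.0812), with groups that overlapped. The ratio of their counts, which is not per length and serves only to compare nerves, put the light chain at 1.23, 0.971 and 1.11 times the heavy chain in intact nerves 1 to 3, against 0.898, 0.818 and 0.940 times in crushed nerves 1 to 3. The ratio was therefore lower in every crushed nerve, although the gap to intact nerve 2 was narrow.

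**Figure D2:**
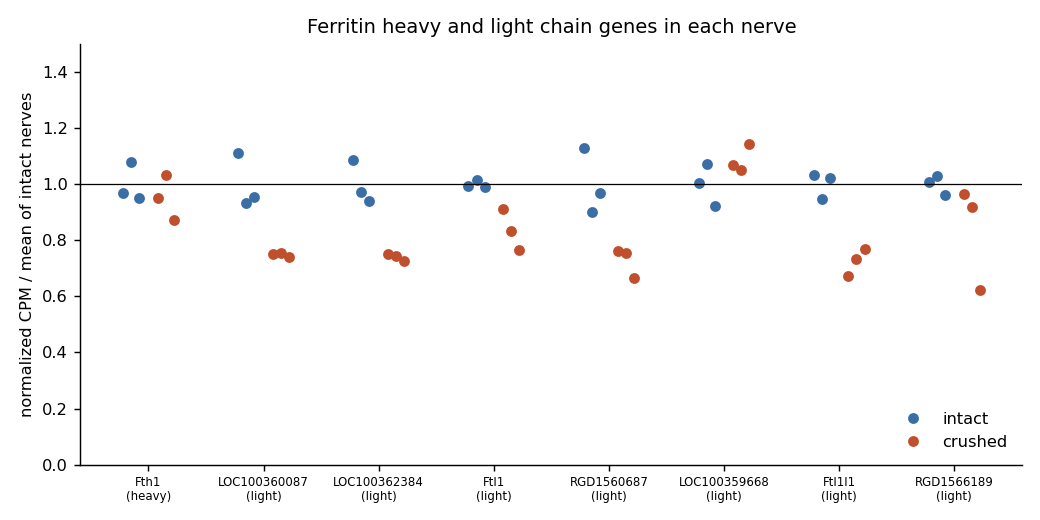
Normalized CPM of each ferritin gene with enough counts, divided by the mean of its intact nerves (y axis), for the intact (blue) and crushed (orange) nerves. The heavy chain gene Fth1 overlaps between the groups, whereas LOC100360087, LOC100362384, Ftl1, RGD1560687 and Ftl1l1 lie lower in all 3 crushed nerves. The light chain genes RGD1566189 and LOC100359668 overlap between the groups, with LOC100359668 higher on average in crushed nerves (log2 fold change 0.12).

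The genes of the iron sensors differed little. Aco1, whose product is a cytosolic aconitase that turns into iron regulatory protein 1 when it loses its iron-sulfur cluster, lies on chromosome 5 from 56425024 to 56481218. It had between 117 and 124 normalized CPM in intact and between 114 and 117 in crushed nerves. The log2 fold change of Aco1 was -0.06 (SE 0.0418, 95% interval -0.15 to 0.03). Ireb2, on chromosome 8 from 59420123 to 59501118, encodes iron regulatory protein 2. It had between 65.0 and 73.4 normalized CPM in intact and between 71.0 and 76.6 in crushed nerves, with a log2 fold change of 0.09 (SE 0.0571, 95% interval -0.04 to 0.21). Both genes overlapped between the groups. The FPKM ratio of Ireb2 to Aco1 was 0.533 ± 0.0491 in intact and 0.590 ± 0.0290 in crushed nerves (SD, n = 3 each), again with overlap. For Tfrc to Fth1, the FPKM ratio was 0.106 ± 0.00959 in intact and 0.125 ± 0.0124 in crushed nerves. The iron regulatory proteins act on the translation of ferritin, so this ratio of RNA does not show their control of Fth1. The groups of this ratio are compared by nerve. They also overlapped, because crushed nerve 2 (0.114) lay below intact nerve 3 (0.117).

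Lcn2, on chromosome 3 from 11414186 to 11417546, encodes a carrier of iron-loaded siderophores made in inflammation. It was at 0 throughout the intact group and had 0, 1 and 1 counts in crushed nerves 1 to 3. Both groups were under the floor of 3 counts, which corresponds to between 0.110 and 0.121 normalized CPM per nerve, so no difference was detectable at this depth. The floor covers counting error only.

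Of the 8 members tested, 5 had a log2 fold change above 0 and 3 below 0, against a median of -0.00174 and quartiles of -0.0922 and 0.0745 over all 12393 genes. Cp and Slc11a2, 2 of the 8, met an adjusted p under 0.05 with edgeR, as did 3.12% of all genes tested, and 1.47% of all genes did so with higher values in crushed nerves, the direction of both. Cp alone met the limits used in the study (a log2 fold change beyond 1 in either direction with a p under 0.001, read as unadjusted), as did 0.282% of all genes, or 0.218% counting the higher ones. In 3 of the 8 the groups did not overlap, against 22.9% of all genes, and all 3 were higher in crushed nerves, as were 10.8% of all genes. The members were chosen with this contrast in view, and nothing is read from these shares. Slc11a2 no longer met the adjusted limit when any 1 of the 6 nerves was left out, or with limma on log2 FPKM. It was also lost when same-numbered nerves were fitted as pairs.

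**Figure D3:**
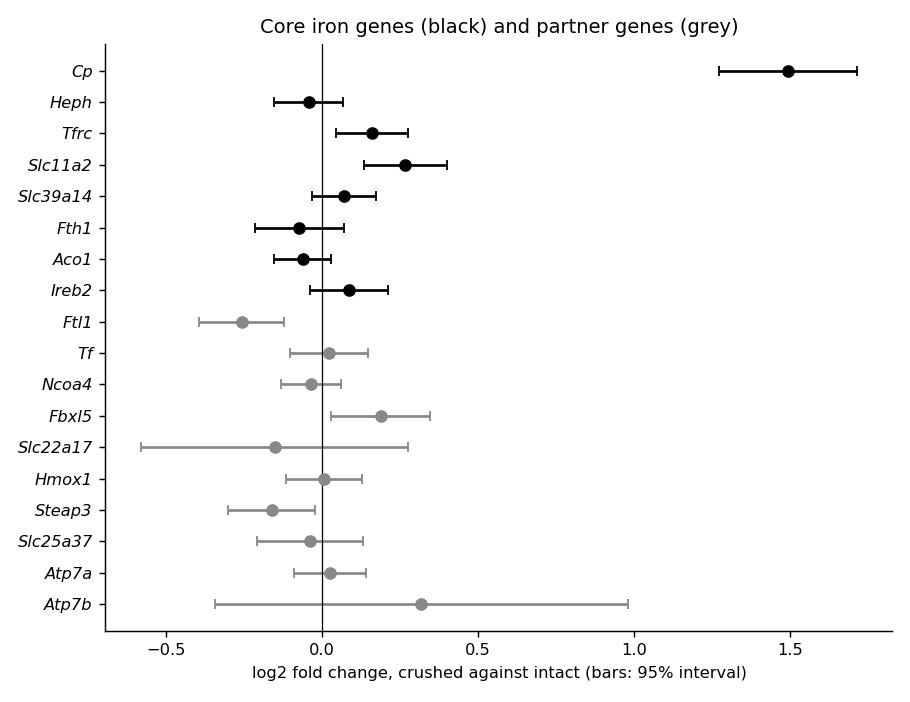
Log2 fold change of crushed against intact nerves (x axis) with its 95% interval for the 8 members tested (black) and 10 partner genes (grey). Only the intervals of Cp, Tfrc and Slc11a2 among the members lie wholly above 0, and that of Cp (1.27 to 1.71) is far from the rest.

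Per length, the members kept a fixed order in all 6 nerves. Fth1 was the most abundant, with between 715 and 875 FPKM, followed by Tfrc with between 78.2 and 98.8 FPKM and Aco1 with between 33.1 and 35.4 FPKM. Ireb2 (17.3 to 20.7 FPKM), Slc39a14 (14.5 to 16.1 FPKM) and Heph (11.7 to 12.9 FPKM) stood close to each other without overlap. Slc11a2 had between 5.98 and 8.10 FPKM and Cp between 1.42 and 4.73 FPKM, so that Cp, even in crushed nerves, remained below Slc11a2. Lcn2 was listed at 0 or at no more than 0.0452 FPKM. The FPKM of Slc11a2 was between 1.57 and 4.47 times that of Cp, the narrowest gap being in crushed nerves.

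**Figure D4:**
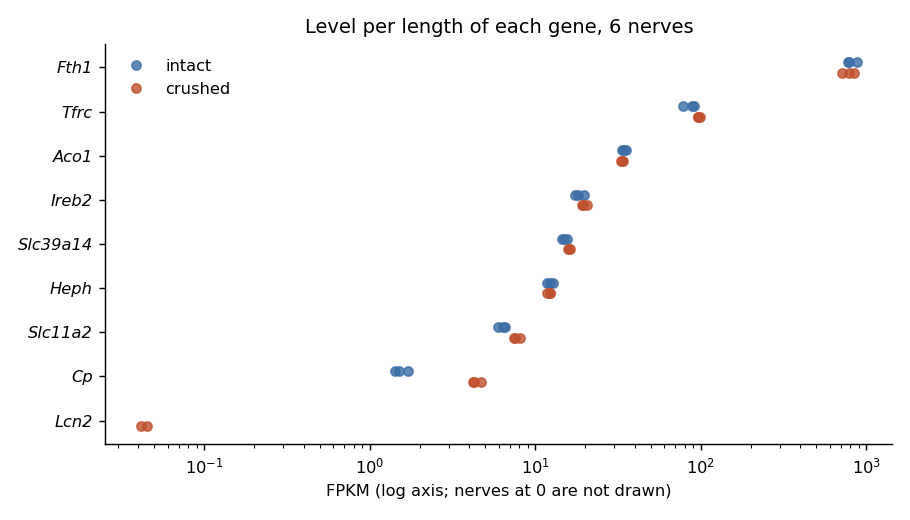
FPKM (x axis, log scale) of the 9 genes in intact (blue) and crushed (orange) nerves, ordered by the mean of the intact nerves. No pair of neighbours overlaps, from Fth1 (715 to 875 FPKM) down to Cp (1.42 to 4.73 FPKM) and Lcn2, whose nerves at 0 are not drawn.

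The other genes of iron, heme and copper handling and the acute-phase proteins were taken from 7 lists. Of 80 genes, 78 had a row and 55 were tested, 31 with a log2 fold change above 0 and 24 below 0, and a median of 0.02. Of these listed genes, none passed an adjusted p under 0.05 with edgeR in either direction, against 3.12% of all genes tested, and none met the limits of the study. The lists hold the ferritin light chain only as Ftl1, and the 4 light chain genes described above that met the adjusted limit are not in them. At an unadjusted p under 0.05 there were 6 of the 55 (2 higher, 4 lower), against 16.2% of all genes tested. DESeq2 called 1 of the 55, Ftl1, and limma on log2 FPKM called 0.

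Of the 9 genes of iron uptake tested, none passed. Tf, which encodes transferrin itself, had a log2 fold change of 0.02 (SE 0.0563, adjusted p = 0.880 by edgeR, after Benjamini-Hochberg correction over all genes). Steap3, which encodes the endosomal reductase that prepares iron for DMT1, was at -0.16 (SE 0.0630, adjusted p = 0.240). Its family member Steap1, named only because of its value, was at 0.18 (adjusted p = 0.126). Slc22a17, which encodes a receptor for the product of Lcn2, had between 56 and 86 counts and a log2 fold change of -0.15 (SE 0.193, adjusted p = 0.754).

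In the list of iron storage and ferritin turnover, 3 genes were tested and all 3 had log2 fold changes below 0. Ftl1 was at -0.26 and just missed the limit (edgeR adjusted p = 0.0504), with all 3 crushed nerves below all 3 intact nerves, whereas LOC100360087, LOC100362384, RGD1560687 and Ftl1l1, outside the list, met it. Ncoa4, which encodes the receptor that carries ferritin to lysosomes, was at -0.03 (SE 0.0435, adjusted p = 0.759). Ftmt, the mitochondrial ferritin, was at 0.

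The 5 genes of ferroxidase and copper supply tested centred on 0.05 (median log2 fold change), and none passed. Atp7a and Atp7b encode the pumps that load copper onto proteins such as ceruloplasmin. Atp7a had between 2729 and 3150 counts and a log2 fold change of 0.03 (SE 0.0517, adjusted p = 0.845), and Atp7b had between 15 and 32 counts and a log2 fold change of 0.32 (SE 0.300, adjusted p = 0.651). Hephl1, the third multicopper ferroxidase of mammals, had at most 1 count in any nerve. The copper importer gene Slc31a1, named only after its value was known, was at 0.05 (adjusted p = 0.710).

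Among the 8 genes of iron sensing and the hepcidin pathway tested, 6 had log2 fold changes above 0 and none passed. Fbxl5, which encodes the iron-sensing ligase subunit that removes iron regulatory protein 2, was counted 1555, 1887 and 1859 times in intact nerves 1 to 3, against 2079, 2108 and 2090 times in crushed nerves 1 to 3, a log2 fold change of 0.19 (adjusted p = 0.221). Hamp, which encodes hepcidin, the hormone that removes ferroportin from the cell surface, had at most 3 counts.

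None of 19 genes of heme synthesis and mitochondrial iron passed, and their median log2 fold change was 0.02. Slc25a37, the mitochondrial iron importer, was at -0.04 (SE 0.0768, adjusted p = 0.849). Of 9 genes of heme uptake, export and breakdown, none passed. Hmox1, which encodes the inducible enzyme that frees iron from heme, had between 1389 and 1618 counts and a log2 fold change of 0.01 (SE 0.0556, 95% interval -0.11 to 0.13, adjusted p = 0.962).

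Cp is also an acute-phase protein. Of the 12 other genes on the acute-phase list, 11 had a row and 5 were at 0. Only Saa4 and Itih4 had enough counts to be tested. The list was made by name, and whether each of its genes responds in an acute phase was not tested. Saa4 and Itih4, named after their values were seen, gave no call. Saa4 was at 0.13 (edgeR adjusted p = 0.324) and Itih4, with between 8 and 26 counts, at -0.80 (edgeR adjusted p = 0.309). The row named Saa4 runs on chromosome 1 from 102776082 to 102849430, and whether its counts are of Saa4 alone was not tested. These values therefore do not describe acute-phase genes as a group. Haptoglobin (Hp) and hemopexin (Hpx), plasma proteins that bind hemoglobin and heme, belong to the heme list and were also named after their values were seen. The complement gene C3, named for the same reason, had 0, 4 and 1 counts in intact nerves 1 to 3, against 7, 12 and 9 in crushed nerves 1 to 3, higher in every crushed nerve but too low to be tested. Hp had between 4 and 12 counts and Hpx between 13 and 31.

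**Figure D5:**
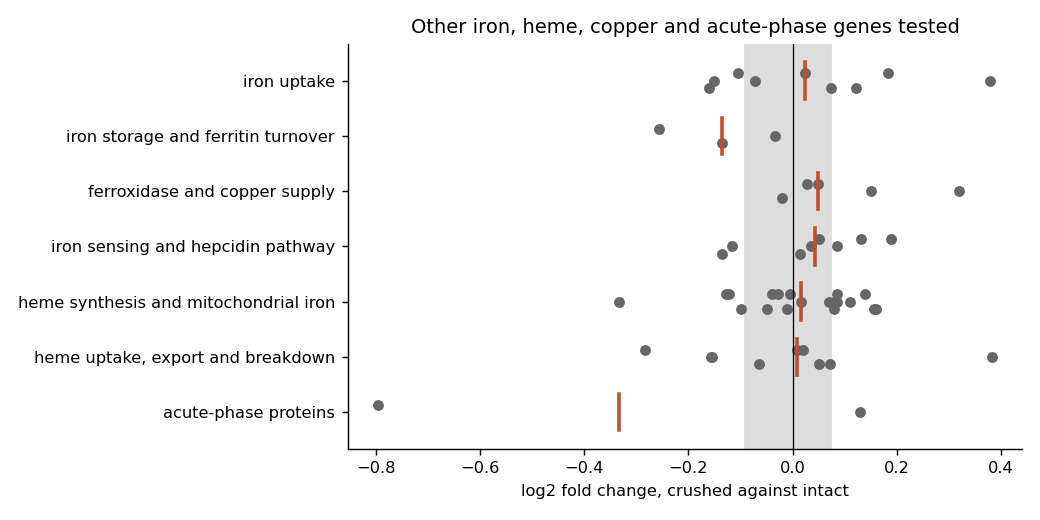
Log2 fold change of crushed against intact nerves (x axis) for each tested gene of the 7 lists (grey points), the median of each list (orange bar) and the middle 50% of all genes tested (grey band). The list medians lie between -0.136 and 0.0494, except that of the acute-phase list, of which only 2 genes were tested. The median of iron storage and ferritin turnover (-0.136, 3 genes tested, all below 0) lies below the grey band.

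The 5 genes whose log2 normalized CPM over the 6 nerves was most like that of Cp were Tgfa and Tnfaip3 (Pearson r = 0.998 each) and Cxcl3, Irf1 and Lox (Pearson r = 0.997 each). With 2 groups of 3 nerves, these coefficients mostly repeat the step between the groups, and the genes share the same libraries. The size of the step differed widely. Cxcl3, a chemokine, had 0.754 ± 0.213 normalized CPM in intact and 7.85 ± 0.260 in crushed nerves (SD, n = 3 each), a log2 fold change of 3.36. Tnfaip3, which encodes the NF-κB inhibitor A20, had a log2 fold change of 0.97, close below the limit of the study. Irf1, an interferon-response transcription factor, was at 0.42, Lox, the collagen and elastin crosslinking enzyme, at 0.32, and Tgfa, a growth factor of the EGF family, at 0.31. In all 5 the 3 crushed nerves lay above the 3 intact nerves, and no other iron gene was among them.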

How the data were processed

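The authors deposited, for each of 6 nerves, whole-number read counts per Ensembl gene and FPKM values, which they derived from those counts. The submitters' processing notes name HISAT2, StringTie 1.3.0 and the Rnor_6.0 build. The counting rule, strand setting and annotation release are not given in the sources used here. Sample titles assigned each of 12 value columns to a nerve, with 0 other value columns. Counts were compared with edgeR 4.0.16 (quasi-likelihood test, TMM normalization, expression filter, no replicate block; limma 3.58.1, R 4.3.3) over all 12393 genes that passed the filter, with Benjamini-Hochberg adjustment over all of them. Standard errors came from the test statistic and 95% intervals from its degrees of freedom. Rows with an Ensembl ID but no symbol (48 of the table, 0.0961% of counts) stayed in the fit and are not reported. Replicates differed by more than sampling noise (within groups, chi-square over its degrees of freedom was 2.90 to 9.84). This cannot show that they came from separate animals. Each nerve was taken as 1 sample because the replicates are described as biological.

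Levels of different genes were compared in FPKM, while shares and ratios of ferritin chains were taken from counts. The genes and lists were chosen with earlier results of these data known. Named were the members, 12 partner genes, list genes past a call limit, neighbours of Cp by position (added after values were seen), and the 5 genes most correlated with Cp. From the myelin and Schwann cell list, 1 gene is not reported here. Other genes, markers at or near 0 among them, were chosen after their values were seen. Alternatives were a replicate block, DESeq2 1.42.0, library totals without TMM, upper-quartile factors, no expression filter (at least 1 count), limma on log2(FPKM + 0.1) and log2(FPKM + 1), and each nerve left out in turn. The sums of ferritin genes were added after the values were seen. The calculation was tested on simulated data with known changes. At an adjusted p under 0.05 with edgeR it called 19 of 12102 unchanged genes. It called 90 of 99 genes changed by 1 on the log2 scale and 95 of 96 changed by 2. The 95% intervals held the true value for 95% of unchanged genes, 88.9% of those changed by 1 and 93.8% of those changed by 2. The nerve numbers 1 to 3 come from the sample titles. The effect of the RNase R step in the methods on the counts was not tested.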

Additional observations from a re-analysis of the deposited data

How the results depend on the processing

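The log2 fold changes of the 8 members kept their sign in each of 13 alternatives, and all but 1 value moved by less than the spread between replicates. Cp was at 1.09 with limma on log2(FPKM + 1), a scale that understates changes of low genes, and between 1.44 and 1.58 when single nerves were left out. The number of members with an adjusted p under 0.05 was 2, and 1 (Cp) with limma on log2(FPKM + 0.1) or log2(FPKM + 1) and in each fit without 1 nerve (1 to 1). With the replicate block (paired analysis) it was also 1, Slc11a2 being lost. Deviations from the group mean correlated between -0.00965 and 0.0709 for same-numbered nerves and between -0.0621 and 0.0693 for nerves of different number. The numbers were thus not taken as pairs. By the design, intact nerves of the opposite side would come from the same animals as crushed nerves, but no label matches them. With 3 nerves per group, these correlations cannot show which nerves share an animal. The main fit, without a block, does not use such a pairing. The count of 0 calls among the other iron, heme, copper and acute-phase genes became 1, Ftl1, with DESeq2 and without crushed nerve 1 (0 to 1 with each nerve left out). Over all genes tested, 387 had an adjusted p under 0.05, 242 with limma on log2(FPKM + 0.1), 256 on log2(FPKM + 1) and between 179 (without crushed nerve 1) and 392 with each nerve left out. The 4 ferritin light chain genes called became 3 with the block or limma and 5 with DESeq2. Causes were not tested. Fewer nerves in a fit leave fewer degrees of freedom. Lcn2, Hamp and Hephl1 were at or under 3 counts, too few for a comparison.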
